A study of Mus musculus with 20 samples.

Results

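The clustered protocadherins are cadherin-like surface proteins encoded by 3 neighbouring gene clusters, alpha, beta and gamma. Members were all genes whose symbol is that of a numbered alpha, beta, gamma A or gamma B protocadherin or of 1 of the C-type genes Pcdhac1, Pcdhac2, Pcdhgc3, Pcdhgc4 and Pcdhgc5. The rule found 57 symbols on 58 Ensembl identifiers, because Pcdha11 is carried by ENSMUSG00000007440 and ENSMUSG00000102206. There were 14 alpha, 22 beta and 22 gamma identifiers, the gamma ones being 12 of type A, 7 of type B and 3 of C-type. All 58 stood among the 51912 identifiers measured at 24 h, and 55 among the 19722 measured at 4 h. Of these, 54 passed the filter on low counts at 24 h, among 16013 genes tested, and 53 passed the filter on low values at 4 h, among 15181 genes tested. Pcdhb1 passed neither filter, Pcdha8 did not pass at 4 h, and Pcdha4, Pcdha11 (ENSMUSG00000102206) and Pcdhga10 did not pass at 24 h and have no 4 h values.

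RNA-seq was measured in 20 libraries of forebrain slices cultured from mouse pups at postnatal day 4 and exposed to 5% horse serum. The 4 h set held 3 libraries with a Tnfaip6 knockout (KO) label and 3 wild-type (WT) libraries. The product of Tnfaip6, TSG-6, modifies hyaluronan in the extracellular matrix. The 24 h set held 4 KO and 3 heterozygous (Het) libraries from males and as many from females. All groups received serum in DMEM according to the sample protocols and in HBSS according to the series text. For the 24 h set the treatment field mentions WT slices where titles and genotype fields say heterozygous, and the titles were followed. How the knockout allele was made is not given in the sources used here. Whether each library is an animal of its own is not stated either, so the p-values rest on library-to-library spread, which may be technical.

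Each alpha and gamma gene begins with its own large variable exon, which encodes the extracellular cadherin repeats, and is spliced to constant exons that all genes of its cluster share. Most beta genes consist of a single exon, with no constant part. A neuron typically switches on a small, partly random set of the alpha, beta, gamma A and gamma B promoters, a choice tied to CTCF, cohesin and DNA methylation, whereas the C-type promoters are used more uniformly. The proteins pair with identical copies on other membranes, and through this they are known for self-avoidance of neurites, spacing of dendrites and survival of neurons in the forebrain and spinal cord.

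Libraries held 11411532 to 15030171 reads in the 4 h set and 8482933 to 18051300 in the 24 h set. Tnfaip6 was read in each library of both genotypes, with 37, 83 and 73 reads in the KO libraries and 76, 94 and 83 in the WT libraries at 4 h, and 45 to 108 in the KO and Het libraries at 24 h, so every genotype direction below rests on the labels. The sex of the 4 h slices is not labelled. KO 1 and WT 1 carried 2355 and 5655 reads of the X-inactivation transcript Xist, while the other 4 libraries at 4 h carried 653 to 883 reads of the Y-linked gene Ddx3y. At 24 h the library labelled KO female 2 had 0 reads of Xist and 826 of Ddx3y, against its label. Het male 1 had 107 reads of Xist beside 656 of Ddx3y, where the other libraries labelled male had 0 to 5 of Xist. Results that rest on KO 1 and WT 1 or on KO female 2 are given with and without them.

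In the GENCODE annotation of the build GRCm38, all members lie on the plus strand of chromosome 18. The alpha genes span 36930184 to 37187661, the beta genes 37264938 to 37524479 and the gamma genes 37661793 to 37841873. Each alpha identifier shares exon bases with 13 other members and each gamma identifier with 21, while of the beta genes Pcdhb21 and Pcdhb22 share some with each other, so a member can be told from its neighbours only through its own exon. How the authors counted reads on shared exons is not given in the sources used here. Pcdhga10 had no exon base free of another annotated gene, the antisense transcript Gm26672 included. It had 0 counts in all 14 libraries at 24 h, which allows up to 0.166 to 0.354 CPM, counts scaled by library total, per library from counting error alone. If reads on bases shared with another gene were not counted, this 0 was set in advance and gives no limit on its level. Pcdha4, of which 404 exon bases are its own, had 10 counts in all at 24 h, and Pcdha11 (ENSMUSG00000102206), with 1268 such bases, had 2. These 3 identifiers were absent from the 4 h values. Levels are therefore given as CPM, scaled by library totals alone, per kb of own exon, that is, exon shared with no other gene on either strand. Read length is not given in the sources used here. Windows of 60 bases cut from the own exons were unique among annotated transcripts in 100% of cases for the C-type genes, in 84.7% for Pcdhgb1 and in 78.5% for Pcdha6, the lowest member with own bases. With windows of 40 bases the shares were 100% for the C-type genes, 80.5% for Pcdhgb1, 72.4% for Pcdha6 and 68.0% for Pcdha7, then the lowest. Both lengths were chosen after seeing the data, and values of members could in part include reads of their relatives.

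Levels ran over a wide range that was shared by both time points. At 24 h Pcdhgc3 stood at 44.0 ± 2.94 and Pcdhgc4 at 38.9 ± 3.64 CPM per kb (SD, n = 14 libraries), followed by Pcdhac2 at 19.7 ± 1.97, Pcdhga11 at 17.9 ± 2.16 and Pcdhgb6 at 13.7 ± 1.33. In mice Pcdhgc4 is required for the survival of cortical interneurons after birth, Pcdhgc3 promotes branching of cortical dendrites, and Pcdhac2 spaces the axons of serotonin neurons. The remaining C-type genes were far lower, Pcdhgc5 at 7.14 ± 1.25 and Pcdhac1 at 1.70 ± 0.230. The order of Pcdhgc3 and Pcdhgc4 depends on which bases are counted as own. With bases overlapped only by opposite-strand genes included, the level was 23.7 for Pcdhgc3, which overlaps the antisense gene BC037039, and 38.9 for Pcdhgc4. Pcdhga11 likewise stood at 8.53 on that scale.

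The spread differed between the groups of variable genes and in some of them rested on single members. Among the 10 alpha genes other than C-type with over 1 kb of own exon and over 100 counts, levels ran from 0.447 for Pcdha8 to 8.24 for Pcdha12, an 18.5-fold range that rests on Pcdha8, with a median of 5.19 CPM per kb. Pcdha9 stood at 7.10 ± 1.24 and Pcdha5 at 6.99 ± 0.991. With bases overlapped only by opposite-strand genes included, Pcdha12 stood at 6.47, below both, so the upper end of this range depends on that choice. The 21 beta genes that met the same limits ran from 1.06 to 5.01, a 4.72-fold range with a median of 1.86. The low end depends on the bases counted as own. Pcdhb12, named after its values were seen, stood at 1.90, but at 0.692 with the opposite-strand overlaps included. Pcdhb9 was highest at 5.01 ± 0.636, then Pcdhb20 at 4.28 ± 0.531 and Pcdhb7 at 4.21 ± 0.688. Pcdhb1, at the 5′ end of the cluster, had 53 counts over all libraries, below that limit, and a level of 0.117 ± 0.0733. The 11 gamma A genes ran from 3.20 for Pcdhga9 to 17.9 for Pcdhga11, with Pcdhga3 at 11.4 ± 1.36 and Pcdhga6 at 9.84 ± 1.33, a 5.59-fold range and a median of 6.53. The upper end of that range rests on Pcdhga11, whose level depends on which bases are counted as own. The 7 gamma B genes ran from 0.963 for Pcdhgb8 to 13.7 for Pcdhgb6, with Pcdhgb1 at 5.46 ± 0.945 and Pcdhgb7 at 5.44 ± 0.820, a 14.2-fold range and a median of 3.93. Pcdhgb8 is annotated as a polymorphic pseudogene.

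**Figure D1:**
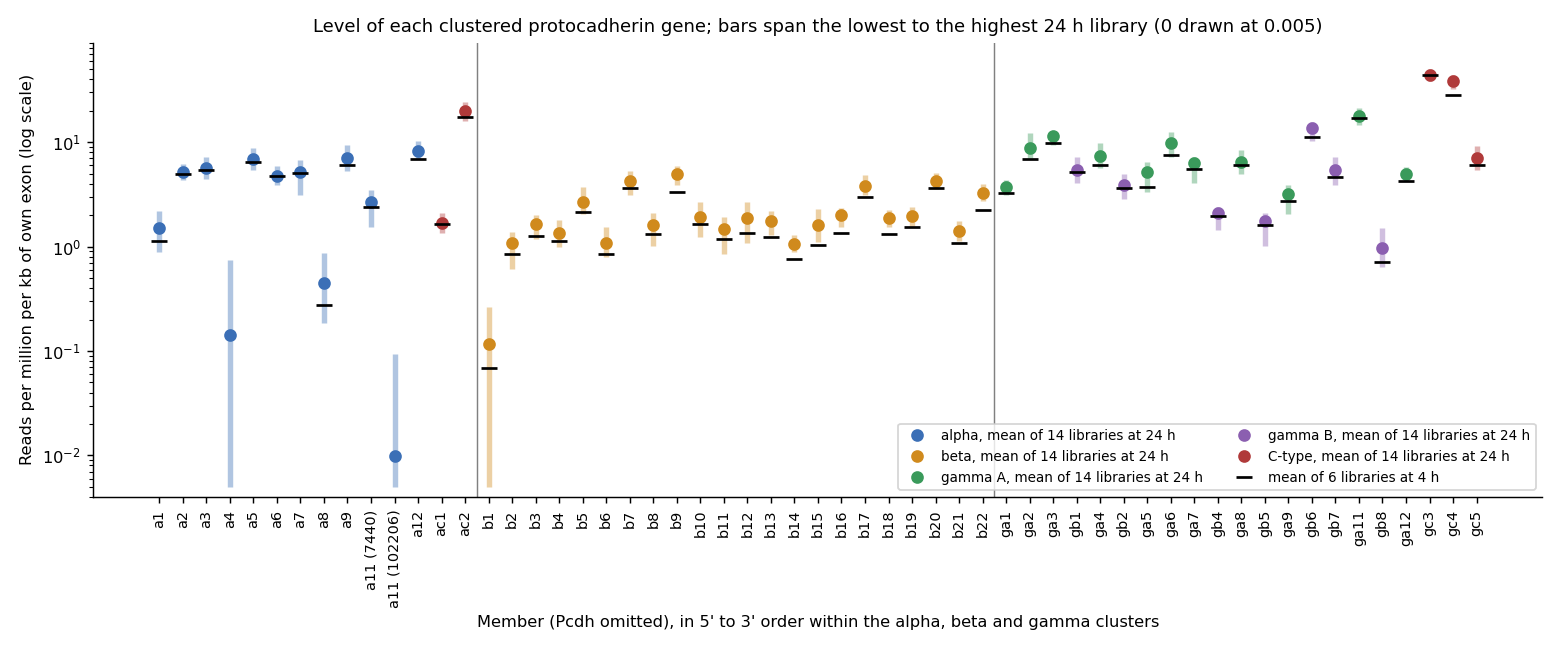
Level of each clustered protocadherin gene with own exon bases, in CPM per kb of own exon on a log axis, in cluster order. Points are means of 14 libraries at 24 h, coloured bars the lowest to the highest of them, black dashes means of 6 libraries at 4 h. Pcdhgc3, Pcdhgc4 and Pcdhac2 stand highest, and the beta genes lie mostly between 1.06 and 5.01. Pcdha4, Pcdha8, Pcdha11 (ENSMUSG00000102206) and Pcdhb1 fall far below their neighbours.

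Of the 56 neighbouring pairs in the order of the 57 levels at 24 h, 11 were separated by more than the larger SD of the pair. These included the steps below Pcdhgc3, Pcdhgc4, Pcdhga11, Pcdhgb6 and Pcdhga3 at the top and those below Pcdhgb8 and Pcdha8 near the bottom, while Pcdhac2 and Pcdhga11 did not differ beyond their spread, nor did most beta genes from their neighbours in the order. This order depends on the bases counted as own. With bases overlapped only by opposite-strand genes included, Pcdhgc3 stood below Pcdhgc4, and Pcdhga11 well below Pcdhac2. Over the 55 members measured at both times, levels at 24 h and 4 h had a Spearman correlation of 0.99, as a description over genes that share libraries. Level and position counted from the 5′ end had Spearman correlations of 0.25 over 10 alpha, 0.32 over 21 beta, -0.10 over 11 gamma A and -0.32 over 7 gamma B genes. Pcdhb1, the low gene at the 5′ end of the beta cluster, was below the count limit and left out. So few genes cannot settle whether position and level are related. The median biological coefficient of variation of the 54 members tested at 24 h was 12.7%, against 10.2% for the 13029 genes within the members' range of level, and the median ratio to the trend with level was 0.904 for members and 0.856 for all genes tested. Among 37 members with at least 100 counts per library on average, deviations from the group means had a median correlation of 0.23 over 244 pairs within a cluster and 0.13 over 422 pairs from different clusters.

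The gamma cluster held most of the reads. Member reads made up 0.0754% of a library at 4 h (SD 0.00445, n = 6) and 0.0898% at 24 h (SD 0.00510, n = 14). Gamma genes took 60.1% ± 1.61 of them at 4 h and 59.4% ± 1.31 at 24 h, alpha genes 20.6% ± 1.45 and 19.3% ± 0.923, and beta genes 19.4% ± 1.16 and 21.3% ± 0.987. These shares count reads and are not scaled by own exon, and beta genes share few exon bases with others. At 24 h the median levels per kb given above were 5.19 in alpha genes other than C-type and 1.86 in beta genes. In gamma A and gamma B genes they were 6.53 and 3.93. The 5 C-type genes alone held 35.1% ± 0.954 of member reads at 4 h and 34.8% ± 0.880 at 24 h. Pcdhgc4 took 21.9% ± 1.75 of gamma reads at 4 h and 25.3% ± 1.22 at 24 h, and Pcdhgc3 17.9% ± 1.23 and 15.0% ± 1.20. Since the 2 times differ in control genotype and were tabulated separately, no test was made between them.

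At 4 h the question was whether KO slices differ from WT slices in these genes. Most members read higher in KO, though by small amounts and without passing the test: 42 of 53 members had a log2 fold change above 0, against 50.6% of all genes, namely 10 of 11 alpha, 17 of 21 beta, 11 of 11 gamma A, 2 of 7 gamma B and 2 of 3 gamma C-type genes. The median log2 fold change was 0.29 in alpha, 0.14 in beta, 0.18 in gamma A and -0.10 in gamma B, against 0.00 over all genes tested. No member passed an adjusted p of 0.05 by limma, where 0.0461% of all genes did, nor by edgeR on the reads recovered from the deposited values, where 0.0459% did. By DESeq2 on the recovered reads 1 member passed, Pcdhac2, against 0.816% of all genes. KO and WT libraries with the same number deviated together, and with the number as a block in limma still 0 members passed, against 0.250% of all genes. At an unadjusted p under 0.05 by limma, 7 of 53 members were higher in KO, against 7.25% of all genes, and 0 were lower, against 6.65%. In bulk tissue, fewer cells of a type and less RNA per cell cannot be told apart.

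The member with the smallest p was Pcdhac2 (ENSMUSG00000102697, chromosome 18, 37143503 to 37187657). Its normalised reads, that is, reads divided by the library's size factor, were 768.0, 783.4 and 744.9 in KO libraries 1 to 3, against 528.6, 620.8 and 644.4 in WT libraries 1 to 3. All 3 KO libraries lay above all 3 WT libraries, and KO libraries differed little among themselves. The log2 fold change was 0.36 ± 0.09 (SE) with an adjusted p of 0.137 by limma, and 0.36 with an adjusted p of 0.0381 by DESeq2 on recovered reads. Without KO 1 and WT 1 it was 0.27 with an adjusted p of 0.543.

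Among the variable alpha genes, Pcdha3 had 253.4, 185.3 and 204.2 normalised reads in KO libraries, against 122.9, 176.4 and 116.9 in WT libraries. Its log2 fold change was 0.64 ± 0.17, with an adjusted p of 0.161. The groups were apart, WT 2 lying just below KO 2 and the other WT libraries further down. Pcdha5, which encodes another alpha ectodomain, had 232.6, 199.4 and 254.4 in KO libraries, against 174.1, 161.6 and 167.7 in WT libraries. Pcdha11 (ENSMUSG00000007440), named here after its values were seen, had 110.8, 77.6 and 99.2 in KO libraries, against 60.1, 57.2 and 65.0 in WT libraries. Neither gene's groups overlapped, with log2 fold changes of 0.44 ± 0.13 for Pcdha5 (adjusted p = 0.175) and 0.64 ± 0.18 for Pcdha11 (adjusted p = 0.178). Without KO 1 and WT 1, Pcdha3 and Pcdha5 still stood at 0.44 and 0.45 on the log2 scale.

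The other members at an unadjusted p under 0.05 were Pcdhb2, Pcdhb7 and Pcdhga6. Pcdhb7 had 188.7, 195.8 and 182.5 normalised reads in KO libraries, against 152.9, 147.8 and 126.0 in WT libraries, and a log2 fold change of 0.41 ± 0.13 (adjusted p = 0.196). Pcdhga6, a gamma A gene, had 278.7, 328.2 and 274.9 in KO libraries, against 241.3, 178.4 and 233.8 in WT libraries, and a log2 fold change of 0.44 ± 0.13 (adjusted p = 0.189). Pcdhb2, which is read at a low level and was named after its values were seen, had 39.5, 37.1 and 38.8 in KO libraries, against 23.9, 21.7 and 24.4 in WT libraries. In each of the 3 the groups were apart. In all, 14 of 53 members had 3 KO libraries above 3 WT libraries, against 10.1% of all genes, 8 of them beta, 4 alpha and 2 gamma. The reverse held for 1 member, against 8.88% of all genes. This was Pcdhb4, named after its values were seen, with 54.9, 48.5 and 46.8 in KO libraries, against 55.7, 63.1 and 62.0 in WT libraries, and a log2 fold change of -0.26 ± 0.19 (adjusted p = 0.578).

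The 3 gamma C-type genes had log2 fold changes between -0.02 and 0.13, with overlapping groups. Pcdhgc3 had 1047.7, 1055.1 and 1017.6 normalised reads in KO libraries, against 1010.3, 1057.3 and 1105.8 in WT libraries, a log2 fold change of -0.02 ± 0.07 whose 95% interval ran from -0.16 to 0.12. Pcdhgc4 had 1580.9, 1238.6 and 1227.5 in KO libraries, against 1212.7, 1396.3 and 1077.4 in WT libraries, with an interval from -0.08 to 0.35. Neither gene separated the genotypes. Pcdhgc5, known from mouse neurons as a partner of GABA-A receptors, had an interval from -0.23 to 0.29, and Pcdhac1, with 38.4 to 63.9 normalised reads in KO and 43.3 to 69.0 in WT libraries, one from -0.46 to 0.53.

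Summed over a cluster, the genotypes were furthest apart in alpha. The alpha genes together had 2365, 2192 and 2163 normalised reads in KO libraries, against 1654, 1904 and 1845 in WT libraries, and the groups did not overlap. The beta genes had 2024, 2126 and 1854 in KO libraries, against 1864, 1704 and 1785 in WT libraries. The gamma genes had 6549.7, 5972 and 5671 in KO libraries, against 5494, 5983 and 5588 in WT libraries. For beta and gamma the groups overlapped, though the gamma A genes alone did not, with 2417, 2357 and 2181 in KO libraries, against 1857, 2123 and 2059 in WT libraries. Differences of the log2 sums were 0.32 in alpha, 0.16 in beta and 0.09 in gamma, against pooled SDs of 0.09, 0.08 and 0.09 between libraries of a group, and 0.28, 0.13 and 0.05 with libraries scaled by their totals. As a share of member reads, alpha genes held 21.8% ± 0.524 in KO libraries and 19.4% ± 0.917 in WT libraries, and gamma genes 58.8% ± 0.950 in KO and 61.3% ± 0.934 in WT libraries (SD, n = 3 each). These sums are described and carry no test.

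For alpha and gamma the pair of libraries numbered 1 was furthest apart, for beta the pair numbered 2. The log2 difference of the alpha sums was 0.52 between KO 1 and WT 1, the libraries with Xist reads, 0.20 between KO 2 and WT 2 and 0.23 between KO 3 and WT 3. For gamma it was 0.25, -0.00 and 0.02 in the same order, so that the mean over numbers 2 and 3 was 0.01, and for beta it was 0.12, 0.32 and 0.06. Without the pair numbered 1, 39 of 53 members had a log2 fold change above 0, among them 8 of 11 alpha, 18 of 21 beta and 13 of 21 gamma genes, against 51.5% of all genes. The median log2 fold change was then 0.15 in alpha, 0.22 in beta and 0.03 in gamma, against 0.29, 0.14 and 0.13 with all libraries. At an unadjusted p under 0.05 by limma, 7 members were then higher in KO, against 3.63% of all genes, and 2 lower, against 4.4%, namely Pcdhgb2 and Pcdhgb5, named after their values were seen.

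**Figure D2:**
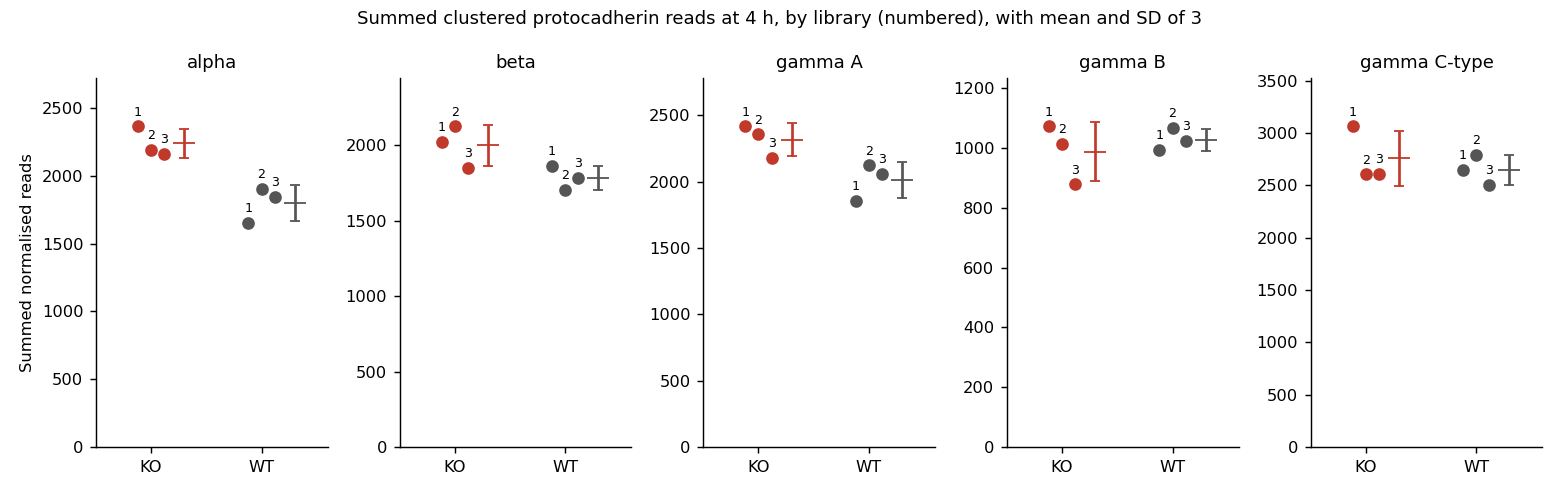
Summed normalised reads (linear axes from 0) of the alpha, beta, gamma A, gamma B and gamma C-type genes at 4 h in 3 KO and 3 WT libraries, numbered, with mean and SD. The KO libraries stand above the WT libraries without overlap for alpha and gamma A, and the groups overlap for beta, gamma B and gamma C-type.

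Summed markers of excitatory neurons and pan-neuronal markers did not overlap between the genotypes at 4 h either, while those of inhibitory neurons did. All 10 markers of excitatory cortical neurons had a log2 fold change above 0, with a median of 0.32, and their summed normalised reads were 16909 to 18555 in KO libraries and 13768 to 14993 in WT libraries. Neurod2 and Tbr1, transcription factors of these neurons, each had an adjusted p of 0.0909 by limma. Of 16 pan-neuronal markers, 13 were above 0, with a median of 0.10 and sums of 148834 to 158982 in KO and 138277 to 145352 in WT libraries. Of 10 markers of inhibitory neurons, 3 were above 0, with a median of -0.05 and sums of 14038 to 16088 in KO and 13541 to 17058 in WT libraries. Markers of astrocytes, meninges and endothelial and mural cells had medians of -0.15, -0.53 and -0.33, with none of 10, 8 and 8 above 0. Their sums were 26003 to 26550 in KO and 26928 to 31282 in WT libraries for astrocytes, 1810 to 2957 in KO and 2635 to 3167 in WT libraries for meninges, and 4245 to 4447 in KO and 4954 to 5693 in WT libraries for endothelial and mural cells. None of the markers was at 0 throughout a group. The part of these shifts in the protocadherin values was not tested.

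At 24 h the comparison was KO with Het slices, within each sex and averaged over the sexes. Averaged over sexes, a log2 fold change above 0 was found for 44 of 54 members, against 50.0% of all genes, with medians of 0.13 in alpha, 0.09 in beta and 0.09 in gamma. None was past the threshold: no member passed an adjusted p of 0.05 by edgeR, where 0% of all genes did, and none by DESeq2. At an unadjusted p under 0.05, 5 of 54 members were higher in KO, against 3.82% of all genes, and 0 were lower, against 2.80%. The 5 were Pcdhb15, Pcdhb17, Pcdhb18, Pcdhga2 and Pcdhga12; of these Pcdhb18 was named after its values were seen. Without the library labelled KO female 2 the counts were 5 higher, against 3.12% of all genes, and 45 above 0, against 49.3%. Without Het male 3 they were 3 higher, against 4.57% of all genes, and 37 above 0, against 51.0%, and the medians were 0.09 in alpha, 0.07 in beta and 0.03 in gamma.

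Pcdhga2 (ENSMUSG00000103332, chromosome 18, 37668953 to 37841870), a gamma A gene, had the smallest p. Its CPM, scaled by TMM as are all CPM of single genes and sums from here on, were 23.3, 31.4, 27.3 and 25.3 in KO males, against 18.3, 18.2 and 21.2 in Het males, and 22.4, 20.2, 26.7 and 23.95 in KO females, against 18.8, 21.0 and 22.3 in Het females. The male groups were apart and the female groups overlapped. The log2 fold change was 0.33 ± 0.08 averaged over sexes (adjusted p = 0.738), 0.48 ± 0.12 in males (adjusted p = 0.718) and 0.18 ± 0.12 in females. The difference of the male and the female fold change was 0.30 ± 0.17, with an adjusted p of 0.977.

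The beta gene Pcdhb17 had 19.09, 18.03, 18.42 and 22.61 CPM in KO females, against 16.8, 14.5 and 16.7 in Het females, and 17.6, 20.6, 18.9 and 18.6 CPM in KO males, against 15.96, 17.96 and 14.88 in Het males. The female groups were apart, and in males Het male 2 reached into the KO range. Its log2 fold change was 0.25 ± 0.08 averaged over sexes and 0.29 ± 0.11 in females, and the male minus female difference was -0.07 ± 0.15. Pcdhga12 averaged 22.2 ± 1.34 CPM in KO and 19.1 ± 2.33 in Het males, and 21.2 ± 1.80 in KO and 18.9 ± 1.32 in Het females (SD), with a log2 fold change of 0.19 ± 0.07 averaged over sexes.

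In females alone the members were evenly split. No member passed an adjusted p of 0.05 by edgeR or DESeq2, where 0% of all genes passed by edgeR. At an unadjusted p under 0.05, 1 of 54 members was higher in KO, Pcdhb17, against 2.06% of all genes, and 0 were lower, against 2.04%. The female groups were apart for the same member, against 2.30% of all genes with KO higher, and for 0 members with KO lower, against 2.40%. The log2 fold change was above 0 for 29 of 54 members, against 51.2% of all genes, with a median of 0.02. Without KO female 2 it was above 0 for 29 members, again with a median of 0.02. After Pcdhb17 the smallest p-values were those of Pcdhgc3, with a log2 fold change of 0.13 ± 0.07, and of the pseudogene Pcdhgb8, with 0.49 ± 0.29 on 1.82 to 3.18 CPM in KO females and 1.599 to 2.232 in Het females.

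In males most log2 fold changes lay above 0, by less once 1 Het library was left out. No member passed an adjusted p of 0.05 by edgeR or DESeq2, where 0% of all genes passed by edgeR. At an unadjusted p under 0.05, 5 of 54 members were higher in KO, namely Pcdhb15, Pcdhb19, Pcdhga2, Pcdhga12 and Pcdhgb1, against 4.13% of all genes, and 0 were lower, against 2.74%. The log2 fold change was above 0 for 49 of 54 members, against 49.7% of all genes, with a median of 0.18. Without Het male 3 these values were 41 of 54, against 50.1% of all genes, and 0.10. Higher in KO at an unadjusted p under 0.05 were then 2 members, Pcdhga2 and, named after its values were seen, Pcdhb4, against 3.30% of all genes. KO female 2 enters this comparison only through the filter, the scaling and the shared spread. Without it, 3 members had an unadjusted p under 0.05 in males, Pcdhb15, Pcdhga2 and Pcdhgb1, all higher in KO, against 4.03% of all genes. The male groups were apart with KO higher for 4 members, Pcdhb15, Pcdhb18, Pcdhga2 and Pcdhgb1, against 3.40% of all genes, and with KO lower for 0, against 3.77%.

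Pcdhgb1 had 15.1, 17.7, 14.5 and 18.6 CPM in KO males, against 12.2, 14.4 and 10.4 in Het males, and a log2 fold change of 0.40 ± 0.16. In females it averaged 13.95 ± 2.35 CPM in KO and 13.96 ± 2.54 in Het libraries. Pcdhb15 had 4.10, 4.03, 4.91 and 3.74 CPM in KO males, against 3.15, 3.42 and 3.01 in Het males, and a log2 fold change of 0.38 ± 0.17. Both pairs of male groups were apart, for Pcdhgb1 by the small gap between KO male 3 and Het male 2. Without Het male 3 the log2 fold change of Pcdhgb1 in males was 0.30.

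**Figure D3:**
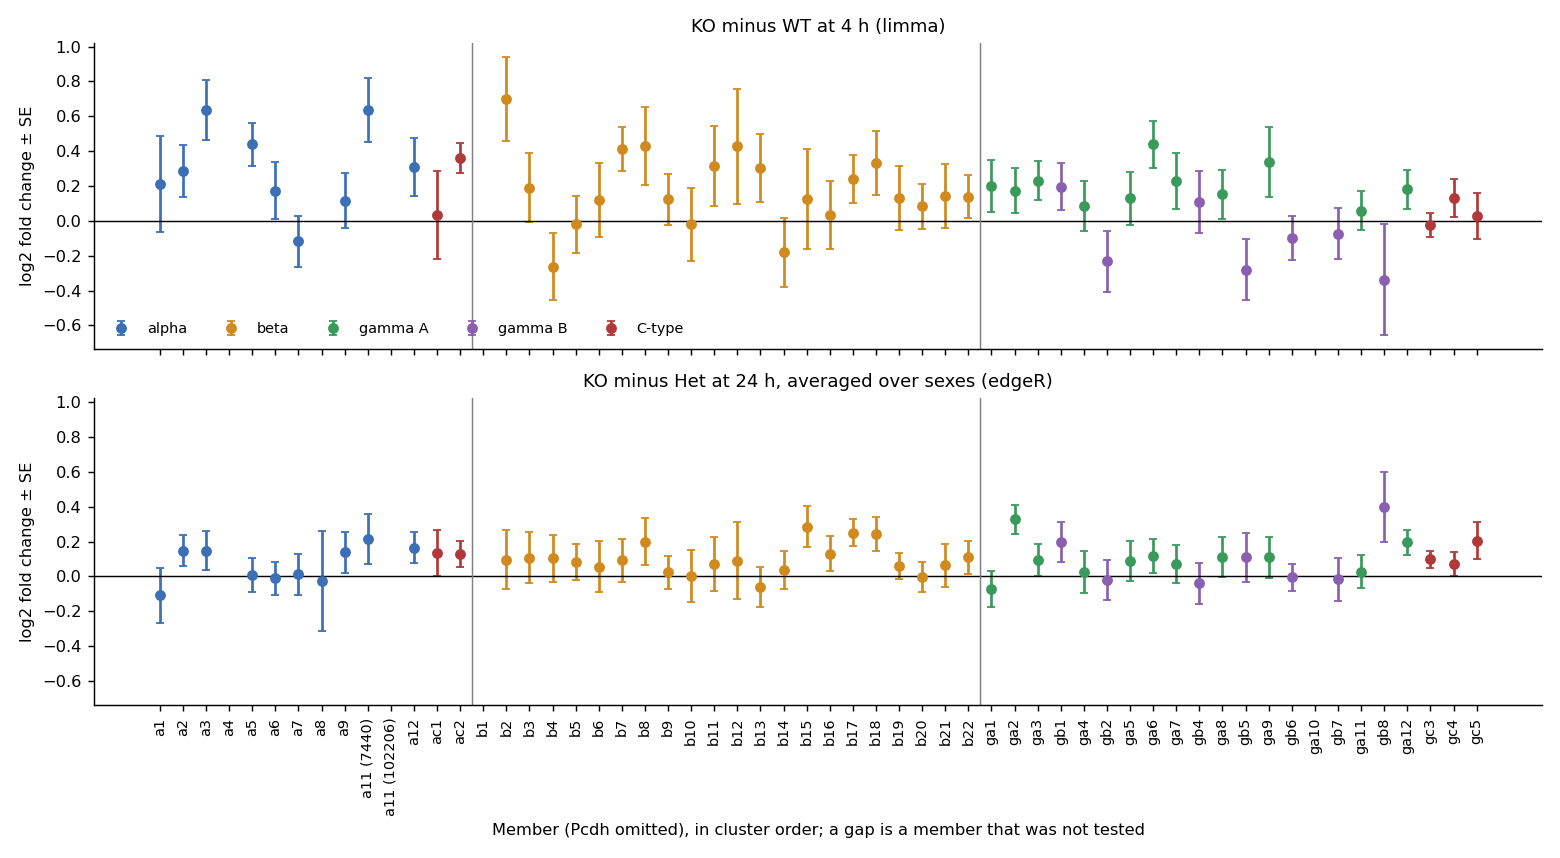
Log2 fold change with SE of each tested member in cluster order, KO minus WT at 4 h above and KO minus Het at 24 h averaged over sexes below. At 4 h the 11 gamma A genes all lie above 0 and 5 of 7 gamma B genes below it, and at 24 h 44 of 54 members lie above 0 by smaller amounts.

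Cluster sums at 24 h are given by library. The alpha genes had 180.1, 186.1, 184.7 and 165.5 CPM in KO males, against 163.8, 172.1 and 142.9 in Het males, and 174.8, 190.3, 173.7 and 176.2 CPM in KO females, against 173.0, 166.0 and 177.2 in Het females. The beta genes averaged 193.6 ± 12.3 CPM in KO and 173.9 ± 12.8 in Het males, and 199.6 ± 14.5 in KO and 195.7 ± 6.58 in Het females. The gamma genes averaged 567.5 ± 20.4 CPM in KO and 504.9 ± 45.9 in Het males, and 532.7 ± 45.0 in KO and 525.1 ± 7.24 in Het females (SD, n = 4 KO and 3 Het each). The genotypes overlapped in both sexes for alpha and beta and in females for gamma, while the gamma sums of the male groups were apart, the lowest KO male at 543.5 and the highest Het male at 539.6 CPM. In log2 units the KO minus Het differences were 0.17, 0.16 and 0.17 in males and 0.05, 0.03 and 0.02 in females for alpha, beta and gamma. Without Het male 3, the lowest library for each of the 3 sums, the male differences were 0.09, 0.12 and 0.10, and without KO female 2 the female differences were 0.02, 0.05 and 0.02. Whether the sums differ between sexes in this was not tested.

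Het male 3 was also low for neuronal markers. The summed CPM of 16 pan-neuronal markers was 8971 to 9788 in KO males, against 9036, 9745 and 8611 in Het males 1 to 3. For 10 excitatory neuron markers it was 996 to 1216 in KO males, against 1040, 1098 and 824 in Het males 1 to 3. Markers of the choroid plexus were higher in some KO libraries, with sums of 171 to 669 CPM in KO males, 129 to 162 in Het males, 167 to 3036 in KO females and 152 to 183 in Het females, and 8 of 8 tested had a log2 fold change above 0 averaged over sexes. The part of either in the protocadherin values was not tested.

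**Figure D4:**
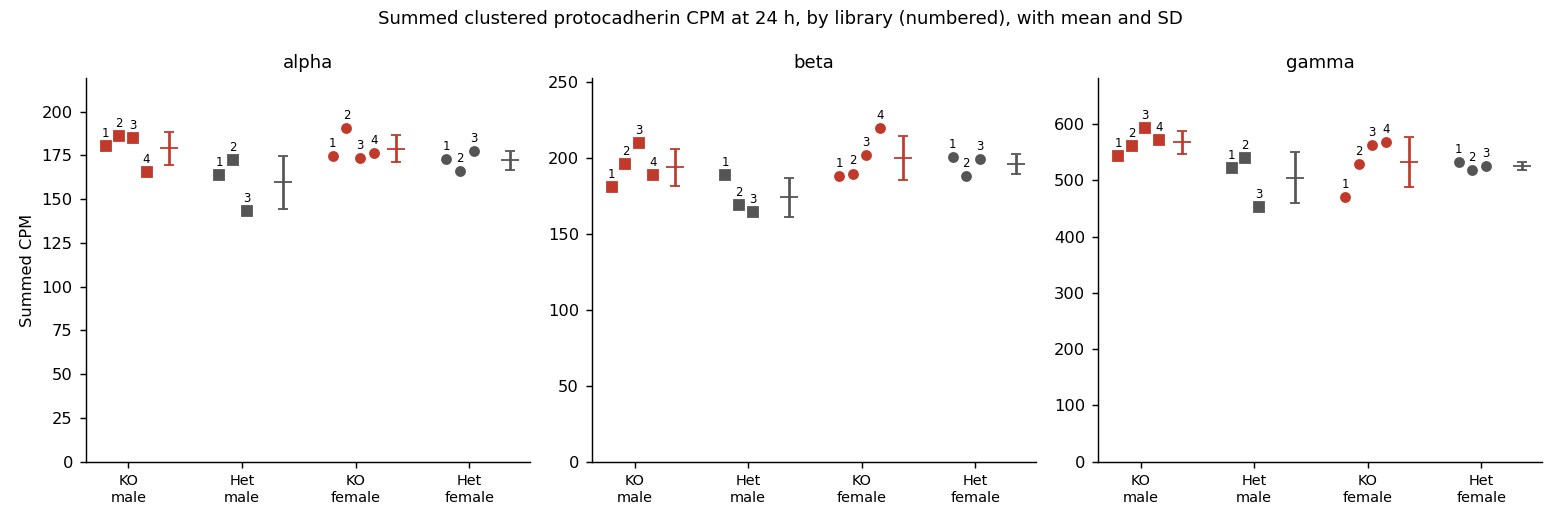
Summed CPM (linear axes from 0) of the alpha, beta and gamma genes at 24 h in KO and Het males (squares) and KO and Het females (circles), libraries numbered, with mean and SD. Het male 3 is the lowest library in all 3 panels, at 142.9, 164.1 and 452.9 CPM.

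The difference between the male and the female genotype effect was itself tested. No member passed an adjusted p of 0.05 by edgeR or DESeq2, where 0% of all genes passed by edgeR. An unadjusted p under 0.05 was found for 3 of 54 members, Pcdha5, Pcdhb19 and Pcdhb20, all with the larger KO minus Het value in males, against 1.91% of all genes, and for 0 members in the other direction, against 1.95%. Pcdhb19 averaged 14.3 ± 0.82 CPM in KO and 12.2 ± 1.05 in Het males, and 14.2 ± 1.04 in KO and 15.5 ± 1.48 in Het females, a difference of log2 fold changes of 0.35 ± 0.15 (adjusted p = 0.977). Pcdhb20 and Pcdha5 had differences of 0.39 ± 0.17 and 0.44 ± 0.20. The difference was above 0 for 43 of 54 members, against 50.1% of all genes, and for 35 of 54 without Het male 3, against 49.8%. There 1 member, Pcdhb4, had an unadjusted p under 0.05 with the larger value in males, against 1.39% of all genes. Without KO female 2 these were 43 of 54, against 48.9%, and 2 members, Pcdha5 and Pcdhgb4, against 2.12%. Pcdhb4 and Pcdhgb4 were named after their values were seen.

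Males were also set against females over both genotypes. No member passed an adjusted p of 0.05 by edgeR or DESeq2, where 0.0187% of all genes passed by edgeR. At an unadjusted p under 0.05, 7 of 54 members were lower in males, against 2.30% of all genes, and 0 were higher, against 2.12%. They were 4 alpha genes, Pcdha1, Pcdha7, Pcdha8 and Pcdha11 (ENSMUSG00000007440), and 3 beta genes, Pcdhb5, Pcdhb15 and Pcdhb19, of which Pcdha7, Pcdha11 and Pcdhb5 were named after their values were seen. Summed excitatory neuron markers were 996 to 1216 CPM in KO males, 824 to 1098 in Het males, 1052 to 1191 in KO females and 959 to 1194 in Het females, with 1 of 10 above 0 in males minus females and 2 of 16 pan-neuronal markers, and their part in these values was not tested. The log2 fold change was above 0 for 4 of 12 alpha, 2 of 21 beta and 13 of 21 gamma genes, 19 of 54 in all, against 48.4% of all genes. Without Het male 3 these were 5 of 12, 6 of 21 and 17 of 21, 28 of 54 in all, against 50.8% of all genes, and without KO female 2 they were 4 of 12, 2 of 21 and 14 of 21, 20 of 54 in all, against 49.6%. Without Het male 3, 5 members were lower in males at an unadjusted p under 0.05, against 2.20% of all genes, and 2 higher, against 1.92%. Without KO female 2, 8 were lower, against 2.60%, and 2 higher, against 2.57%.

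Pcdhb15 (ENSMUSG00000047033, chromosome 18, 37473540 to 37476340), a single-exon beta gene, had the smallest p of the members between sexes and did not pass. Beside the male values given above, it had 5.77, 4.48, 5.84 and 6.42 CPM in KO females and 4.91, 5.10 and 4.88 in Het females. The lowest female library was KO female 2, the library with Y-linked reads, and KO male 3 alone reached the range of the females. The log2 difference of males minus females was -0.53 ± 0.12 with an adjusted p of 0.478, and -0.57 with an adjusted p of 0.195 without KO female 2. At 4 h, where sex is not labelled, its normalised reads were 28.5, 60.9 and 31.9 in KO libraries and 32.7, 36.5 and 35.6 in WT libraries, KO 1 and WT 1, which carried Xist reads, being the lowest of their groups.

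Pcdha8 had 0.998, 0.593, 0.834 and 0.954 CPM in KO males, 0.886, 0.627 and 0.681 in Het males, 1.65, 0.467, 1.57 and 1.43 in KO females and 1.06, 2.13 and 1.65 in Het females. All males lay below 1 CPM, as did KO female 2 alone among the libraries labelled female. The log2 difference was -0.88 ± 0.28 (adjusted p = 0.998), and -1.003 (adjusted p = 0.528) without KO female 2. Pcdha1, the gene at the 5′ end of the alpha cluster, averaged 3.04 ± 0.636 CPM in KO males, 3.26 ± 0.317 in Het males, 4.29 ± 0.798 in KO females and 4.63 ± 1.01 in Het females, a log2 difference of -0.49 ± 0.16.

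**Figure D5:**
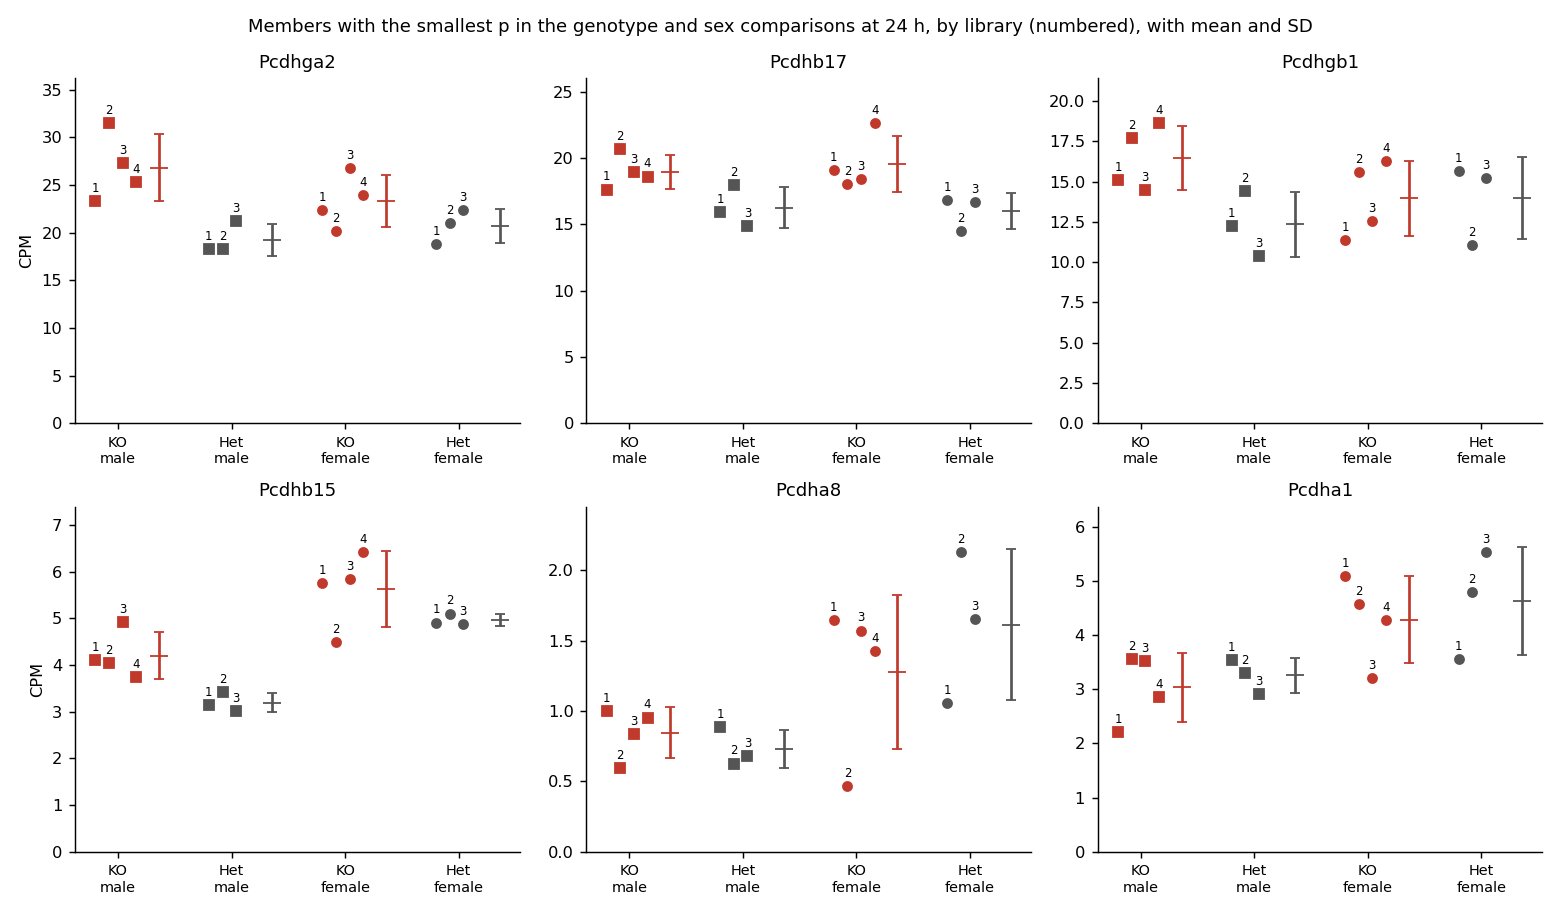
CPM (linear axes from 0) at 24 h of Pcdhga2, Pcdhb17, Pcdhgb1, Pcdhb15, Pcdha8 and Pcdha1 in KO and Het males (squares) and KO and Het females (circles), libraries numbered, with mean and SD. For Pcdha8 the library labelled KO female 2 stands at 0.467 CPM, below all males and all other female libraries, on counts of 5 to 28 per library.

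Genes that act with the clustered protocadherins were read from lists, none of whose genes passed an adjusted p of 0.05 in any comparison. Of 21 regulators of promoter choice, among them the insulator protein Ctcf and the cohesin subunit Rad21, 14 had a log2 fold change above 0 at 4 h, with a median of 0.02, and 13 at 24 h averaged over sexes, with a median of 0.01. The smallest p at 4 h was that of the DNA methyltransferase Dnmt3a, with 0.14 ± 0.07 (adjusted p = 0.413), and at 24 h that of Rad21, with -0.10 ± 0.05 (adjusted p = 0.745). In males alone 18 of 21 were above 0, with a median of 0.07, led by Smchd1, a silencer of these clusters in mice, at 0.24 ± 0.08 (adjusted p = 0.718), and in females 3 of 21. The summed CPM of this list was 2550 to 2628 in KO males, against 2561.5, 2544.5 and 2255 in Het males 1 to 3, so that Het male 3, lowest for the cluster sums, was lowest here too. Its part in the male values was not tested. Of 21 partners inside the cell or at its surface, 17 were above 0 at 4 h, with a median of 0.09, and 15 at 24 h. They were led at 4 h by Cyfip2 of the WAVE actin regulatory complex, at 0.27 ± 0.07 (adjusted p = 0.131), and by the kinase Ptk2b, which binds the alpha and gamma cytoplasmic tails, at 0.29 ± 0.08 (adjusted p = 0.168).

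The 12 protocadherins that lie outside the clusters had 9 log2 fold changes above 0 at 4 h, a median of 0.14 and summed normalised reads of 13639 to 15025 in KO and 12555 to 12919 in WT libraries. Pcdh1 had the smallest p, with a log2 fold change of 0.39 ± 0.07 (adjusted p = 0.0900). At 24 h 7 of 12 were above 0, with a median of 0.03. Of 16 tested neighbours of the clusters on chromosome 18, 10 were above 0 at 4 h, with a median of 0.05, and 5 at 24 h, with a median of -0.05. Among further marker lists, inhibitory neurons had a median of -0.06 at 24 h averaged over sexes. Medians at 4 h and at 24 h averaged over sexes were -0.13 and -0.07 for the oligodendrocyte lineage, -0.05 and -0.12 for microglia and -0.22 and -0.26 for proliferating cells. Choroid plexus markers had medians of -0.19 at 4 h over 5 tested genes and 0.99 at 24 h.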

How the data were processed

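The 4 h values (unit: signal) are, as deposited and judged from the values, read counts per gene divided by 1 size factor per library. Dividing each value by what 1 read is worth in its library gave whole reads, within 0.05, for 100% of values, and the deposited factors matched median-of-ratios factors to within 4.63e-11. The 24 h values are raw counts per gene as deposited by the authors. Per the submitters' processing notes the tools were TopHat2, HTSeq and DESeq2 1.38.3 with GRCm38 (mm10); their roles, the annotation release and strandedness of counting: not given in the sources used here. Reads of genes that overlap on opposite strands cannot be told apart. The labels name total RNA amplified with SMART-Seq V4.

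Symbols came from the supplied GENCODE annotation of GRCm38, which matched 19673 of 19722 identifiers at 4 h and 51633 of 51912 at 24 h. At 4 h, genes had to average at least 10 (15181 did), and limma 3.58.1 with a trend was run on their log2(value + 1); fold changes on this scale understate those of low genes. At 24 h edgeR 4.0.16 (R 4.3.3) fitted 1 mean per genotype and sex to TMM-normalised counts of 16013 genes with the quasi-likelihood test. P-values were adjusted by Benjamini-Hochberg over all genes tested, with a threshold of 0.05. CPM of genes and sums used TMM library sizes; levels per kb and shares used plain totals. Alternatives were no filter on low values, a pseudocount of 5, other normalisations, DESeq2 1.42.0, a replicate block and leaving out libraries; those chosen after seeing the data were the 4 h fit without KO 1 and WT 1, the values within each number, the sums per length and the member counts without KO female 2 or Het male 3. Limits of a count of 0 are 3 counts and cover counting error only. Fits were tested on simulated data.

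At 4 h, deviations of KO and WT libraries of the same number from their group means correlated at 0.264, 0.140 and 0.175 for numbers 1, 2 and 3, and 6 of 6 libraries correlated best with their own number, so the numbers were taken to pair the libraries. The main 4 h fit held genotype alone, so p-values and SEs given for single members at 4 h do not use this pairing. Values are named for the C-type genes, the 3 highest members and the lowest member of each other group, and the 3 members with the smallest p in each comparison; other genes came from 14 lists of 167 genes (promoter choice regulators, partners, non-clustered protocadherins, chromosome 18 neighbours and markers of 10 cell classes), at most 2 of which are named per list. The members and lists were chosen with earlier results of these data known.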

Additional observations from a re-analysis of the deposited data

Results flagged for a closer look

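In 3 of 60 groups of 4 libraries checked at 24 h, 1 library lay far from the other three, where chance alone gives about 5% of groups. Pcdhac1 was lowest in KO male 4 at 3.419 CPM, against 4.822, 4.865 and 5.099 in the other KO males. Pcdhgb7 was lowest in KO female 2 at 7.192 CPM, against 9.958, 9.994 and 10.45 in the other KO females. The summed alpha genes were highest in KO female 2 at 190.3 CPM, against 173.7, 174.8 and 176.2. KO female 2 is the library labelled female that had no Xist reads.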

How the results depend on the processing

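The number of members past an adjusted p of 0.05 was 0 under every alternative run except 3. It was 1 with DESeq2 on recovered reads at 4 h (Pcdhac2), and 1 with no filter on low counts at 24 h, both averaged over sexes (Pcdhga2, log2 fold change 0.32, adjusted p = 0.0293 by edgeR) and in males (Pcdhga2, 0.47, adjusted p = 0.0253). DESeq2 at 4 h called 161 of 19722 genes. The unfiltered fit called 263 of 30270 genes averaged over sexes and 220 of 30270 in males, where the filtered fit called 0 in each. Leaving out each replicate gave 0 members each time, and cluster sums that differed by 0.26 to 0.36 for alpha, 0.12 to 0.22 for beta and 0.03 to 0.14 for gamma at 4 h, and by 0.07 to 0.14, 0.07 to 0.12 and 0.06 to 0.12 at 24 h averaged over sexes. All 310 alternative values of the 18 single-gene results kept their direction, in fits to the same libraries or to part of them.

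Counts over all genes moved more. At 4 h, 7 genes passed in limma, against 10 without a filter, 28 with robust moderation, 38 with the replicate block and 161 with DESeq2. Leaving out 1 library gave 1 to 211 genes, with 211 without KO 2, 11 without KO 1, 4 without KO 3, 2 without WT 2 and 1 without WT 1, and leaving out both KO 1 and WT 1 gave 1. At 24 h, without a filter on low counts, 263 genes passed averaged over sexes, 180 in females, 220 in males and 165 for the difference, where 0 did with it, and 215 for males minus females, where 3 did. DESeq2 called 5, 1, 1, 1 and 5 genes in the same order. Leaving out 1 library gave up to 2 genes averaged over sexes and 2 to 9 for males minus females, with 9 without KO female 2. A fit to the male groups alone called 1. The cause was not tested.

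At 24 h same-numbered libraries did not deviate together (correlations of -0.117 to -0.0374 in females and 0.0279 to 0.0867 in males). The replicate block within a sex gave 6 genes averaged over sexes, 6 in females, 0 in males and 4 for the difference, with 0 members in each, and no block can be fitted for males minus females. The block changed no other call. Few counts lie behind Pcdha8 and Pcdhb1.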
